A study of Mus musculus with 2 samples.

Results

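The genes described here are 8 that are commonly read as marks of a fetal or regenerating gut epithelium: Ly6a, Ly6e, Anxa1, Anxa3, Clu, Krt7, Areg and Il33. They were taken by name, and all 8 were found among the 52636 gene identifiers of both count matrices. The study sequenced single intestinal cells from 2 mouse embryos at E18.5 on the C57BL/6 background, 1 embryo and 1 library per genotype. One embryo was Mlkl -/- and is called Mlkl-null. The other was Casp8 C362A/C362A Mlkl -/- and is called Casp8-mutant. Both were thus labelled as lacking Mlkl, which encodes the executor of necroptosis, and the second also carried on both copies an allele that changes the catalytic cysteine of caspase-8. Mlkl had 1 UMI (a counted transcript molecule) in the Mlkl-null library and 13 in the Casp8-mutant library, and Casp8 had 401 and 235. Tags from transcript 3' ends need not fall in the deleted part of Mlkl and do not read the Casp8 change, so these counts do not check the labels. The comparison asks how intestinal cells differ with and without active caspase-8 where Mlkl is absent. The labels name whole intestine in one place and small intestine in another, which leaves the region of the gut undecided.

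After intestinal injury, adult epithelium can return for a time to a programme that resembles the fetal gut, in which Ly6a (encoding Sca-1), annexins and clusterin are switched on and crypt stem genes are turned down. The transcriptional co-activators YAP and TAZ, acting through TEAD factors, are known drivers of that programme, and interferons and inflammatory cytokines are known inducers of Ly6a. Amphiregulin and interleukin 33 are signals released by stressed epithelia and stroma that act on growth factor receptors and on immune cells.

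Promoter sequence is shown for Anxa1 and Areg, called higher in Casp8-mutant epithelial-like cells by the size rule used below, and for Krt7, not called. The sequences are from RefSeq, build GRCm38.p6 (the build also called mm10), from 250 bases before to 50 bases after the gene start, written 5′ to 3′ on the gene's strand. The RefSeq starts of Anxa1 and Krt7 differ from the GENCODE gene boundaries given below, and both windows lie inside the GENCODE genes. The windows are at chr19:20390622-20390921 (minus strand, Anxa1), chr5:91139349-91139648 (plus strand, Areg) and chr15:101412153-101412452 (plus strand, Krt7). Capitals mark a match to any of 4 motifs searched on both strands.
Anxa1: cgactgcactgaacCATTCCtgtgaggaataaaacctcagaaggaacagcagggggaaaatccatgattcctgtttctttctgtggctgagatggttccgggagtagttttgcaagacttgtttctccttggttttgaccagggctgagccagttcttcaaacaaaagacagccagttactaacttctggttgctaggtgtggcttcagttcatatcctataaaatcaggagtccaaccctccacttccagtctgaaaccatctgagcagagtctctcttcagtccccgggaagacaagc
Areg: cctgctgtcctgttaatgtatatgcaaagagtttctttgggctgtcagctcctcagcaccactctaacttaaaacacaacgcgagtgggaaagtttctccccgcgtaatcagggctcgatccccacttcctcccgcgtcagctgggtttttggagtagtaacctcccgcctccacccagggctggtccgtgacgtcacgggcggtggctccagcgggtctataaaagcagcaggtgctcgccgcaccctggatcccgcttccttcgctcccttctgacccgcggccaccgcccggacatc
Krt7: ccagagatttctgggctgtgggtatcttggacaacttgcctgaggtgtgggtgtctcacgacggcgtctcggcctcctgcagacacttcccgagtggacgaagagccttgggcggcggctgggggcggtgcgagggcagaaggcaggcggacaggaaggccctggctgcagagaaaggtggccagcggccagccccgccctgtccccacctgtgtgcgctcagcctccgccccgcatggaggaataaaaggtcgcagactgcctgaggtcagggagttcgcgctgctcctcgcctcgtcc
The motifs were the interferon regulatory factor core AANNGAAA, the STAT motif TTCNNNGAA, the AP-1 motif TGANTCA and the TEAD motif GGAATG. Among 32851 RefSeq promoters of the same length, 23.9%, 8.30%, 7.81% and 14.7% held them, in that order. Anxa1 held 1 TEAD match, on the opposite strand, 236 bases before the start, and the Areg and Krt7 sequences held none of the 4. Il33 had 2 listed starts: the upstream one held 1 interferon regulatory factor core and 1 TEAD match, and the other held 1 TEAD match. A promoter was found for 4 of the 8 genes, and a match is a string of letters, not a shown binding site.

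The libraries held 1478 (Mlkl-null) and 1014 (Casp8-mutant) cell barcodes with 6290008 and 2804929 unique molecular identifiers (UMIs, counted transcript molecules), and 2 barcode sequences occurred in both. Filtering left 1435 and 873 cells with medians of 3707 and 1957 UMIs, so the Casp8-mutant cells were read less deeply. Xist, the RNA of the silenced X chromosome, had 2 and 8478 UMIs and the Y-linked Ddx3y 277 and 2, so sex and genotype cannot be told apart. Clusters named from marker genes gave 1183 and 573 epithelial-like cells, 82.4% and 65.6% of those kept. All 11 epithelial markers were detected in both libraries, summing to 5193 and 6139 counts per 1 M UMIs (CPM). The clusters were almost entirely separate by library: clusters 2, 3, 4, 6, 11, 12 and 16 held Mlkl-null cells, clusters 18 to 21 held Casp8-mutant cells, and cluster 10 held 6 and 69. The make-up of the epithelial-like class by cluster name therefore differed, with 120 and 0 progenitor-like and 585 and 188 enterocyte-like cells. Progenitor markers, all 9 detected in each library, summed to 254 and 312 CPM over the class. They reached 788 and 487 CPM in the highest cluster of each library. The 0 is thus a count of named cells and does not show that progenitors were absent. Transcripts of other cells also differed within the epithelial-like class. Granulocyte markers summed to 19.4 and 3195 CPM (5 and 8 of 8 detected, with Ly6g, Mpo and Elane at 0 in the Mlkl-null cells). They ranged over clusters from 10.0 to 37.3 and from 2925 to 3556 CPM. Erythroid markers, all 6 detected in each, summed to 3016 and 10453 CPM and ranged over clusters from 2505 to 4195 and from 9653 to 11102. Whether the make-up of the class, these transcripts or the depth gap take part in the results below was not tested, unless a measurement is given.

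In epithelial-like cells, 5 of the 7 member genes with enough UMIs were higher in the Casp8-mutant library: Ly6a, Ly6e, Anxa1, Anxa3 and Areg. Of these, Ly6e, Anxa1 and Anxa3 overlapped by level the erythroid-like cells or haemoglobin-rich barcodes of that library, as given below. Clu and Krt7 were within 2-fold, and Il33 was too rare to call. A gene was called only with at least 20 UMIs over both libraries and a level ratio of at least 2-fold. By that rule 17.8% of 13912 genes were higher and 19.2% were lower in these cells, and no member was lower. Ly6a passed the minimum through the Casp8-mutant library alone. With 1 embryo per genotype there is no test and no replicate check, and each interval is a 95% interval for counting error only. Levels carry exact Poisson intervals, ratios conditional exact intervals and shares of cells Clopper-Pearson intervals. Paired values are given as Mlkl-null and then Casp8-mutant.

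Ly6a (ENSMUSG00000075602, mm10 chr15:74994877-74998031, minus strand) encodes Sca-1, a membrane protein held by a lipid anchor and a marker of repairing epithelium. It had 6 UMIs in Mlkl-null epithelial-like cells and 1927 in Casp8-mutant ones, or 1.13 CPM (0.414 to 2.46) and 973 CPM (930 to 1017). The ratio was 796 (395 to 2352). In the Mlkl-null library 6 cells held a single UMI each. In the Casp8-mutant library 346 cells held one or more, with a median of 3 among them, a highest value of 41, and 124 cells with 5 or more. Ly6a was therefore near the detection limit in one epithelium and spread over most cells of the other.

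Ly6e (ENSMUSG00000022587, chr15:74955051-74959905, plus strand), a relative of Ly6a encoded nearby and known as an interferon-induced gene, was also higher. It had 104 and 837 UMIs, or 19.6 CPM (15.98 to 23.7) and 423 CPM (394 to 452), a ratio of 21.5 (17.6 to 26.7). No Mlkl-null epithelial-like cell held 5 Ly6e UMIs, against 45 Casp8-mutant cells.

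The annexins are calcium-dependent proteins that bind membranes. Anxa1 (ENSMUSG00000024659, chr19:20373428-20390944, minus strand) encodes annexin A1, whose peptides signal through formyl peptide receptors to dampen inflammation. It had 26 and 72 UMIs, 4.89 CPM (3.19 to 7.16) and 36.3 CPM (28.4 to 45.8), a ratio of 7.34 (4.69 to 12.1). Anxa3 (ENSMUSG00000029484, chr5:96793339-96845966, plus strand), a family member found in injured gut epithelium, had 31 and 56 UMIs. That was 5.83 CPM (3.96 to 8.27) and 28.3 CPM (21.4 to 36.7), a ratio of 4.81 (3.07 to 7.78). Most of the cells that held either annexin had 1 UMI of it, and no cell had more than 4.

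Areg (ENSMUSG00000029378, chr5:91139599-91148432, plus strand) encodes amphiregulin, a ligand of the epidermal growth factor receptor. It had 270 and 279 UMIs, 50.8 CPM (44.9 to 57.2) and 141 CPM (125 to 158), a ratio of 2.77 (2.34 to 3.29). Il33 (ENSMUSG00000024810, chr19:29925114-29960718, plus strand), the nuclear alarmin that signals through the ST2 receptor, had 10 and 9 UMIs, each in a different cell. The interval of its ratio, 0.869 to 6.62, covers no difference, and a difference was not detectable at this depth.

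Krt7 (ENSMUSG00000023039, chr15:101411043-101430313, plus strand) encodes a keratin of simple and ductal epithelia. It had 1032 and 315 UMIs, 194 CPM (182 to 206) and 159 CPM (142 to 178), a ratio of 0.820 (0.720 to 0.930). Its direction turned with the processing, to 1.31 when every cell was thinned to 1500 UMIs and reclustered and to 1.04 when each cell counted equally. Clu (ENSMUSG00000022037, chr14:65968483-65981547, plus strand) encodes clusterin, a secreted chaperone that marks revival stem cells of the damaged gut. It had 95 and 39 UMIs, 17.9 CPM (14.5 to 21.8) and 19.7 CPM (14 to 26.9), a ratio of 1.11 (0.739 to 1.62). The Clu ratio was 0.52 when every cell was thinned and reclustered, and 2.32 when each library was clustered alone.

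**Figure D1:**
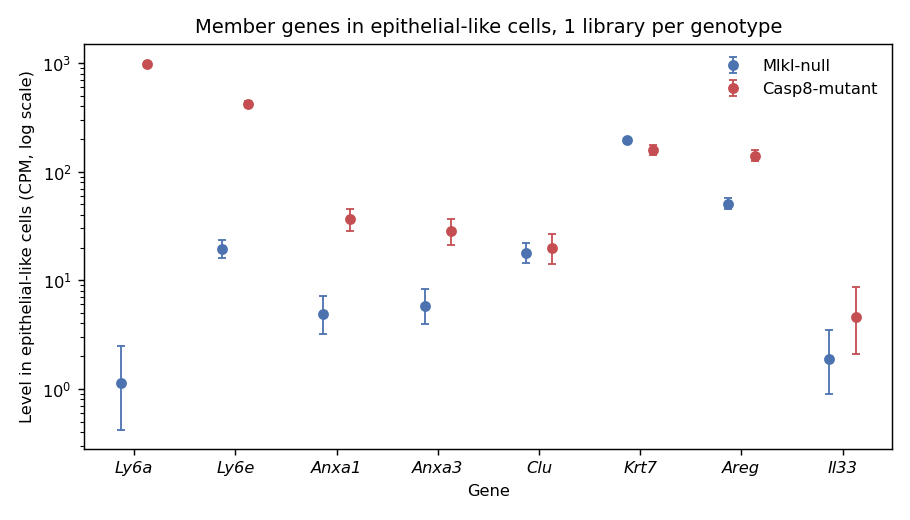
Level of each member gene in epithelial-like cells, in CPM on a log axis, for the Mlkl-null (blue) and Casp8-mutant (red) library; bars are exact Poisson 95% intervals. Ly6a stands at 1.13 and 973 CPM, while the Clu intervals overlap and Krt7 is at 194 and 159 CPM.

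Much of the Clu signal came from a few cells with many UMIs each. In the Mlkl-null epithelium 5 cells, all in the progenitor-like cluster 3, held 56 of its 95 UMIs (58.9%), with up to 16 in 1 cell. In the Casp8-mutant epithelium the 5 highest cells held 20 of 39 UMIs (51.3%), and 2 cells, both in cluster 18, held 5 or more. The cells with 5 or more Clu UMIs were also rich in Spp1, which encodes osteopontin, with 107 UMIs in the 5 Mlkl-null cells against 16 in the other 1178. Onecut1 and Bicc1, genes known from biliary and pancreatic ducts, had 12 UMIs each in those 5 cells and 3 and 4 in the rest. Ctrb1, a chymotrypsinogen gene of the pancreas, had 33 UMIs in those cells, against 1630 spread over 823 of the others. The stem cell gene Lgr5 and Krt7 were at 0 UMIs in the 5 cells, and in the 2 Casp8-mutant cells there were 15 Spp1 UMIs, 1 of Lgr5 and 0 of Krt7. Spp1, Onecut1, Bicc1, Ctrb1 and Lgr5 were looked up after the Clu values had been seen, and the 7 cells are too few to compare the libraries. Acinar-like groups of 8 and 2 cells, led by pancreatic enzyme genes, were found outside the epithelial-like class, and in the Mlkl-null group Clu was at 356 CPM (14 UMIs).

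The share of cells with a UMI was compared at equal depth, each cell being thinned to 1500 UMIs. This left out 57 Mlkl-null and 133 Casp8-mutant epithelial-like cells that were shallower, and kept 1126 and 440. Erythroid-like cells, red cell precursors that carry free RNA from the suspension, were the reference, with 20 and 14 cells kept and 0 and 11 left out. Haemoglobin genes led their cluster and take up part of the UMIs of each cell. Shares and levels of other genes in this reference are therefore lowered, by an amount that was not measured. Median depths before thinning were 3905 and 2517 UMIs in epithelial-like and 3148 and 1574 UMIs in erythroid-like cells.

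Ly6a was detected in 0.0888% of Mlkl-null epithelial-like cells (1 cell, interval 0.00225 to 0.494) and in 53.4% of Casp8-mutant ones (48.6 to 58.1). Before thinning the shares were 0.507% and 60.4%. In erythroid-like cells the Ly6a share was 0 of 20, which allows up to 15%, and 14.3% (2 of 14, interval 1.78 to 42.8). The Casp8-mutant epithelial share lay above that reference, with intervals that do not overlap but with no correction for haemoglobin. Ly6e was detected in 2.13% (1.37 to 3.15) and 43.2% (38.5 to 48.0) of epithelial-like cells, against 8.28% and 56.9% unthinned. Its erythroid-like shares were 10.0% (2 of 20) and 35.7% (5 of 14, interval 12.8 to 64.9), so the Casp8-mutant epithelial share is within the interval of that reference. By level too, Ly6e in Casp8-mutant epithelial-like cells (423 CPM, 394 to 452) overlapped the erythroid-like 225 CPM (103 to 428). It was above the 100 CPM (59.4 to 158) of the haemoglobin-rich barcodes removed by the filter, where haemoglobin also lowers the level of other genes.

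Areg was detected at equal depth in 6.13% (4.80 to 7.69) and 15.9% (12.6 to 19.7) of epithelial-like cells, against 16.1% and 26.2% unthinned. No erythroid-like cell of either library held an Areg UMI, which at 14 Casp8-mutant cells still allows 21.4%. Krt7 was detected in 21.6% (19.2 to 24.1) and 21.8% (18.05 to 25.97) of epithelial-like cells, shares that differ by less than their intervals. Unthinned, the Krt7 shares were 48.4% and 36.5%, in the order of depth. Anxa1 was detected in 0.888% (0.427 to 1.63) and 4.55% (2.80 to 6.93), and its Casp8-mutant erythroid-like share of 7.14% (1 of 14) was no lower, so its share is not read as expression here. Anxa3 was detected in 0.710% (0.307 to 1.40) and 3.18% (1.75 to 5.28) of epithelial-like cells. No erythroid-like cell held an Anxa3 UMI, but the limit of 21.4% at 14 Casp8-mutant cells is higher than its epithelial share. The Anxa3 share is therefore not read as expression either.

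**Figure D2:**
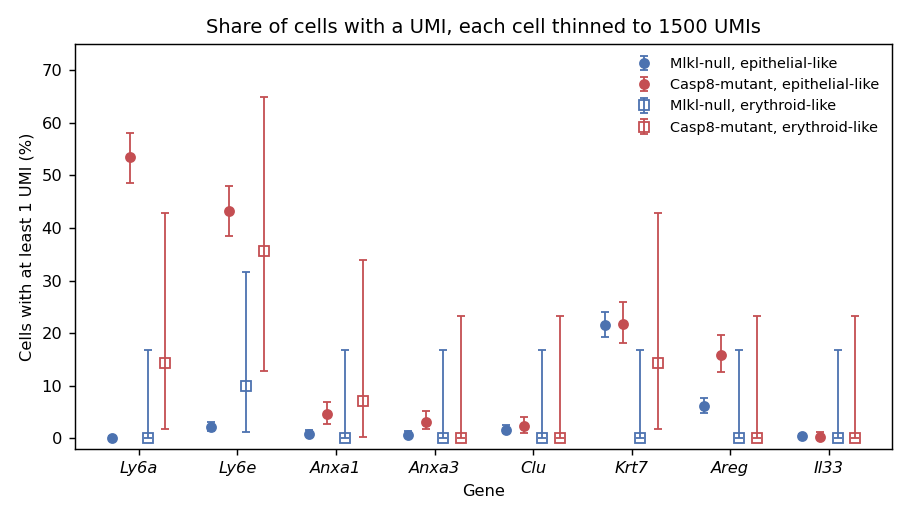
Percentage of cells with at least 1 UMI of each gene after thinning every cell to 1500 UMIs, for epithelial-like cells (filled circles) and erythroid-like cells (open squares) of the Mlkl-null (blue) and Casp8-mutant (red) library; bars are Clopper-Pearson 95% intervals. Ly6a was found in 53.4% of Casp8-mutant epithelial-like cells, Krt7 in 21.6% and 21.8%, and the erythroid-like intervals are wide with 20 and 14 cells.

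Within the Casp8-mutant epithelium Ly6a differed between clusters. It was highest in cluster 19 at 1772 CPM (1601 to 1957), a cluster whose leading genes include Reg3b and the ileal bile acid gene Fabp6. Clusters 18 (1079 CPM, 1012 to 1148) and 10 (1027 CPM, 898 to 1168), the latter goblet-like, had overlapping intervals and came next. Cluster 20, led by small nuclear RNAs, followed at 786 CPM (691 to 892). Cluster 21, enterocyte-like but led by Sprr2a3 and the interferon-stimulated genes Isg15 and Ifit1, was lowest at 258 CPM (205 to 320). Ly6a itself is among the leading genes of clusters 18 and 19 although it was kept out of the genes used for clustering. Clusters 10, 18, 19 and 20 were above the erythroid-like 175 CPM (70.5 to 361), and cluster 21 lay within that interval. Cluster 21 was above the 111 CPM (68.0 to 172) of the removed haemoglobin-rich barcodes. Both references are lowered by haemoglobin, and how much of the Ly6a was free RNA was not tested. Every Mlkl-null epithelial cluster of at least 82 cells had 4 Ly6a UMIs or fewer.

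The other members had different orders over the same Casp8-mutant clusters. Ly6e ran from 582 CPM (500 to 674) in cluster 20 and 538 (446 to 644) in cluster 19, whose intervals overlap, down to 224 (166 to 295) in cluster 10. Areg was highest in cluster 10 at 399 CPM (320 to 491), then cluster 19 at 240 (180 to 313), and lowest in cluster 21 at 28.3 (12.9 to 53.7). Anxa3 was at 89.7 CPM (54.8 to 138) in cluster 10 and 67.8 (38.0 to 112) in cluster 19, and at 6.28 (0.761 to 22.7) in cluster 21. Krt7 was at 289 CPM (223 to 370) in cluster 19 and 256 (194 to 331) in cluster 10, above the 85.8 (67.8 to 107) of cluster 18. In the Mlkl-null epithelium Krt7 ran from 315 CPM (271 to 363) in the goblet-like cluster 2 to 113 (92.6 to 137) in the progenitor-like cluster 3. Areg there was highest in clusters 4 and 3, at 94.9 (72.6 to 122) and 73.0 CPM (56.6 to 92.7), whose intervals overlap.

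Among Casp8-mutant epithelial-like cells at 1500 UMIs, 235 held a Ly6a UMI and 205 did not. Areg was found in 21.7% of the first (16.6 to 27.5) and 9.27% of the second (5.67 to 14.1). Ly6e was found in 48.1% (41.5 to 54.7) and 37.6% (30.9 to 44.6), with overlapping intervals. Krt7 was found in 22.1% and 21.5%, whether or not Ly6a was detected. Anxa1 (5.96% and 2.93%), Anxa3 (4.68% and 1.46%) and Clu (3.40% and 0.976%) had overlapping intervals. These are cells of 1 library whose clusters differ in both genes, and they are given as a description.

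In goblet-like cells, the mucus-secreting lineage, the same 5 members were higher and none was lower, of 6 measured. There 6.81% of 5785 genes were higher and 32.5% were lower. Ly6a, Ly6e and Anxa3 had 20 UMIs in the Casp8-mutant library alone, so the UMI minimum bears on this count. The class held 88 cells (82 in cluster 2 and 6 in cluster 10) and 69 cells, all in cluster 10, with median depths of 6053 and 2816 UMIs. Ly6a had 4 and 229 UMIs (6.26 and 1027 CPM), and its ratio was 146 (63.1 to 607). Areg had 30 and 89 UMIs (47.0 and 399 CPM), and its ratio was 8.40 (5.56 to 13.3), beside 2.77 over all epithelial-like cells. The difference between those ratios was not tested. Ly6e had a ratio of 8.26 (4.77 to 15.6), Anxa1 of 4.97 (2.12 to 13.1) and Anxa3 of 4.35 (2.08 to 9.63), and Krt7 stayed within 2-fold at 0.821 (0.597 to 1.10). The Casp8-mutant Ly6e share at equal depth, 28.1% (18 of 64 cells), was below the erythroid-like 35.7% and is not read as expression.

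In enterocyte-like cells, the absorptive lineage, 4 members were measured, of which Ly6a and Ly6e were higher and none was lower. There 11.1% of 8979 genes were higher and 19.5% were lower. Of the 4, Ly6a had 20 UMIs in the Casp8-mutant library alone. The class held 585 cells of clusters 11, 12 and 16 and 188 cells of cluster 21, with median depths of 3165 and 1603 UMIs. Ly6a had 1 and 82 UMIs, a ratio of 336 with a counting interval of 87.3 to 19999. Ly6e had 23 and 75 UMIs, 11.8 and 236 CPM, a ratio of 19.6 (12.3 to 33.3). Areg had 79 and 9 UMIs, 40.7 and 28.3 CPM, a ratio of 0.729 (0.307 to 1.39) that turned to 1.45 when each library was clustered alone. Krt7, with 319 and 64 UMIs, had a ratio of 1.23 (0.921 to 1.61). The Casp8-mutant Ly6e share at equal depth, 32.7%, was below the erythroid-like 35.7%, and the Ly6a share, 25% (17.03 to 34.4), lay within the interval of the erythroid-like 14.3%.

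Outside the epithelium, fibroblast-like cells showed Ly6a, Ly6e and Anxa1 higher, of 6 members measured, and none lower. There 10.8% of 3181 genes were higher and 16% were lower. Of the 6, Ly6a had 20 UMIs in the Casp8-mutant library alone. The class held 54 and 57 cells, all in cluster 0, and its leading genes were Col1a1, Dlk1 and Sparc. Ly6a had 9 and 129 UMIs, 38.1 CPM (17.4 to 72.4) and 820 CPM (685 to 975), a ratio of 20.5 (10.98 to 48.1). In the Mlkl-null library 3 fibroblast-like cells held all 9 of those UMIs. The Casp8-mutant Ly6a share at equal depth, 50% (31.3 to 68.7), overlapped the interval of the erythroid-like 14.3% (1.78 to 42.8). Its level lay above the erythroid-like 175 CPM (70.5 to 361), which is lowered by haemoglobin. Ly6e had a ratio of 3.15 (2.28 to 4.43) and Anxa1, at 97.5 and 229 CPM, of 2.33 (1.35 to 4.15). Anxa3 (1.29, 0.646 to 2.53), Krt7 (0.892, 0.591 to 1.32) and Clu (0.557, 0.171 to 1.41) were within 2-fold. Il33 had 11 of its 22 UMIs in kept Mlkl-null cells in this class, 46.6 CPM (23.3 to 83.4), and 5 of 16 in the Casp8-mutant library, 31.8 CPM (10.3 to 74.2).

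In myeloid-like cells only Ly6a was higher, of 3 members measured, and none was lower. There 14% of 3232 genes were higher and 11.4% were lower. Of the 3, Ly6a had 20 UMIs in the Casp8-mutant library alone. The class held 62 cells (51 in cluster 15 and 11 in cluster 17) and 130 cells, all in cluster 17, where the neutrophil gene S100a9 and Il1b are among the leading genes. Ly6a had 0 and 124 UMIs, at least 33.0-fold higher when the 0 is set at 3 counts in the Mlkl-null class. Its Casp8-mutant share at equal depth, 51.4% (39.2 to 63.6), overlapped the interval of the erythroid-like 14.3% (1.78 to 42.8). By level, its 525 CPM (437 to 626) lay above the erythroid-like 175 CPM (70.5 to 361), which is lowered by haemoglobin. How much of this Ly6a was free RNA was not tested. Ly6e was at a high level in both libraries, 1267 CPM (1111 to 1438) and 1020 CPM (896 to 1158), a ratio of 0.805 (0.671 to 0.967). Anxa3, at 133 and 123 CPM, had a ratio of 0.924 (0.524 to 1.65). Ly6e detection in this class at equal depth was 80.0% and 71.4%, against the erythroid-like 10.0% and 35.7%.

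**Figure D3:**
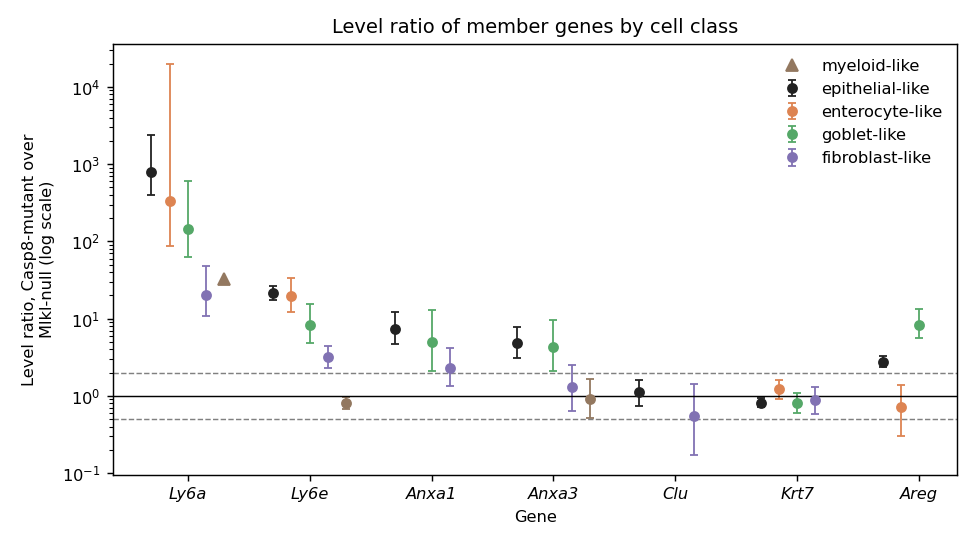
Level ratio of each measured member, Casp8-mutant over Mlkl-null, on a log axis for 5 cell classes; circles are ratios with conditional exact 95% intervals, the triangle is the lower bound for Ly6a in myeloid-like cells, and dashed lines mark 2-fold. The Ly6a ratios run from 20.5 in fibroblast-like to 796 in epithelial-like cells, and Krt7 lies within 2-fold in each class measured.

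Classes too small to compare give levels only. Ly6a in the Casp8-mutant library was at 516 CPM (359 to 718) in 36 enteroendocrine-like cells, at 371 (136 to 808) in 10 neuron-like cells and at 175 (70.5 to 361) in 25 erythroid-like cells. The epithelial-like clusters 18 to 20, which had no lineage name, stood together at 1123 CPM (1069 to 1179), an interval that overlaps that of goblet-like cells. In order, the named Casp8-mutant classes of at least 10 cells ran from goblet-like (1027 CPM) through fibroblast-like (820), myeloid-like (525), enteroendocrine-like (516) and neuron-like (371) to enterocyte-like (258) and erythroid-like (175). Neighbours in that order had overlapping intervals, except fibroblast-like and myeloid-like cells. In the Mlkl-null library Ly6a was highest in fibroblast-like cells (38.1 CPM, 17.4 to 72.4) and was at 0 UMIs in the progenitor-like, myeloid-like, neuron-like and erythroid-like classes. Krt7 was highest in enteroendocrine-like cells of the Casp8-mutant library (590 CPM, 421 to 803) and at 315 CPM (230 to 420) in those of the Mlkl-null library. Areg in the Mlkl-null library was highest among the named classes in progenitor-like cells, at 73.0 CPM. Clu was at 162 CPM (81.0 to 290) in Casp8-mutant enteroendocrine-like cells, where 2 cells held all 11 UMIs. The leading genes of the enteroendocrine-like cluster include the insulin genes Ins1 and Ins2, and whether this class holds pancreatic cells was not tested.

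**Figure D4:**
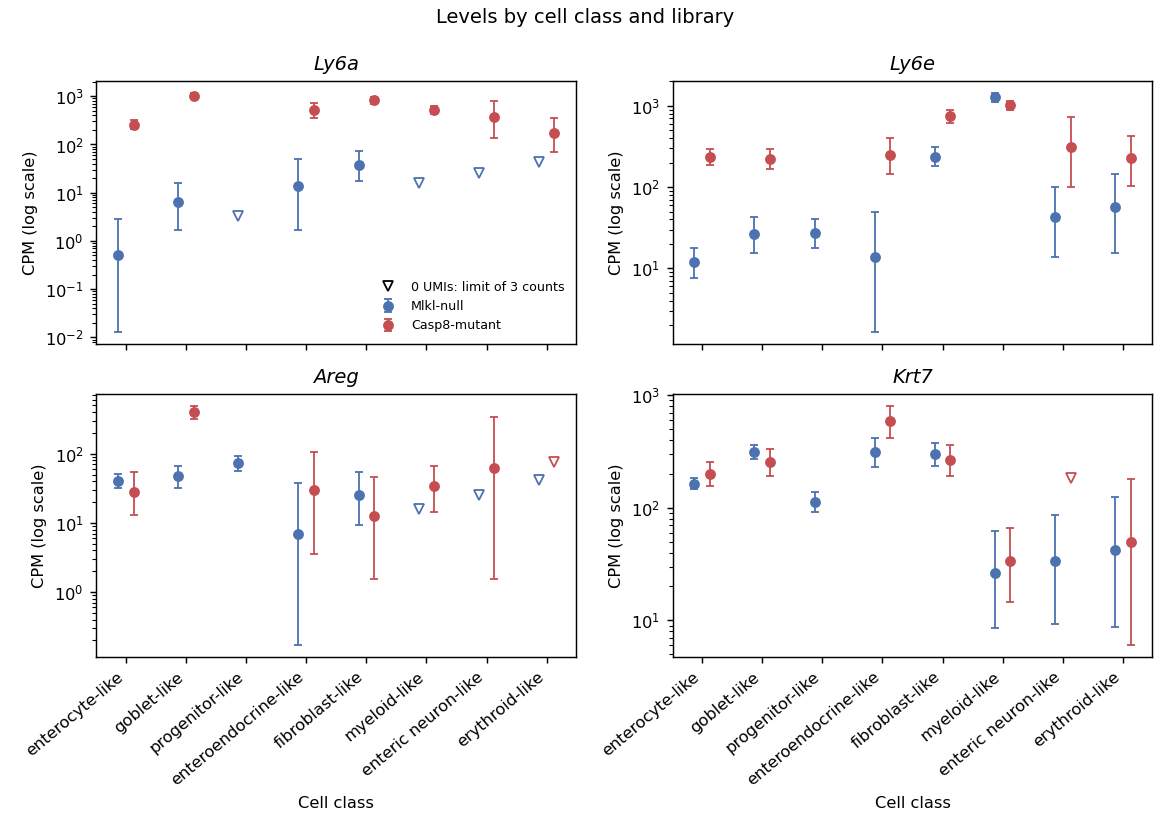
Levels of Ly6a, Ly6e, Areg and Krt7 in CPM on log axes by cell class, for the Mlkl-null (blue) and Casp8-mutant (red) library; bars are exact Poisson 95% intervals and open triangles show the limit of 3 counts where no UMI was found. Ly6a is higher in the Casp8-mutant library in each class with a UMI in both, while Ly6e in myeloid-like cells is at 1267 and 1020 CPM.

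The relatives and partners of the member genes were examined as 9 lists in epithelial-like cells, each read against the 17.8% of genes higher and 19.2% lower and the median log2 ratio over all measured genes of -0.17. Some genes stand in more than 1 list, and setting genes with 0 UMIs at their bound left each median of these lists as given. Of the fetal or regenerative companions, 27 of 31 were measured, with 17 higher, 1 lower and 9 neither, and a median log2 ratio of 2.20. Of the 27, 8 had 20 UMIs in the Casp8-mutant library alone, and all 8 were among the 17 higher. The UMI minimum therefore bears on the count and on the median, and neither is support for a change of the list as a whole. The most abundant were S100a6, a calcium-binding protein gene at 385 and 1775 CPM (ratio 4.61, 4.36 to 4.87), and the keratin gene Krt19 at 521 and 841 CPM (1.61, 1.52 to 1.71). Cldn4, a tight junction gene, had a ratio of 1.59 (1.47 to 1.71) and Anxa2 of 2.22 (2.05 to 2.41). The gene that was lower, Anxa8, with 48 and 3 UMIs, was named after its values were seen. Whether the granulocyte transcripts described above take part in the values of this list was not tested.

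Of the YAP and TAZ targets, 16 of 25 symbols were measured: 1 was higher, 0 were lower and 15 were neither, around a median log2 ratio of -0.46. Ccn1, a matrix protein gene often used to read YAP activity, was at 118 and 77.7 CPM, a ratio of 0.663 (0.551 to 0.790). Gadd45a had a ratio of 0.646 (0.491 to 0.832), Crim1 of 0.618 (0.373 to 0.954) and Amotl2, a feedback regulator of the pathway, of 0.647 (0.385 to 1.01). The higher gene, Nt5e (1 and 24 UMIs), was named after its values were seen. Ccn2 and Ankrd1, also common readouts, had 3 and 4 UMIs and 0 and 0 UMIs and could not be called. The counts of this list, from 0 to 3 higher and 0 to 6 lower, moved with the settings, and YAP activity itself was not measured.

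Of the Ly6 family, 21 of 23 symbols were matched and 9 had enough UMIs, of which 9 were higher, with a median log2 ratio of 5.69. The UMI minimum bears on that count: 7 of the 9 had 20 UMIs in the Casp8-mutant library alone, and others of the family, such as Ly6g6d (15 and 4 UMIs) and Psca (7 and 0), fell under it. The count is therefore no support for a change of the family. With a minimum of 5 UMIs, 12 of 16 were higher and 1 was lower, beside 21.5% and 19.5% of 18952 genes. Lypd8, a secreted protein gene of enterocytes that keeps bacteria from the surface, was at 1558 and 4388 CPM, a ratio of 2.82 (2.73 to 2.90). Ly6g, a neutrophil marker, had 0 and 94 UMIs, at least 84.1-fold higher, beside the granulocyte transcripts described above. Ly6d had 7 and 83 UMIs and a ratio of 29.9 (14.8 to 81.6), and Ly6c2 had 2 and 79, a ratio of 85.4 (28.4 to 891). Several of these genes, Ly6a, Ly6c1, Ly6c2, Ly6g and Ly6i among them, are close copies in 1 gene cluster, so how reads were split among them is uncertain.

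The annexin family was mixed: 4 of 10 measured genes passed 2-fold upwards, 3 downwards and 3 in neither direction, and the median log2 ratio was -0.39. The higher ones were Anxa1, Anxa3, Anxa2 and Anxa10, and the lower ones Anxa4, Anxa13 and Anxa8. Anxa4 was at 589 and 206 CPM, 2.86-fold lower, and Anxa13, an annexin of enterocytes, at 44.2 and 14.1 CPM, 3.08-fold lower. Anxa5 (0.691, 0.523 to 0.894) and Anxa7 (0.842, 0.630 to 1.10) were within 2-fold.

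Areg was 1 of 2 higher genes among 9 measured of the epidermal growth factor family, with 2 lower, 5 neither and a median log2 ratio of -0.37. The other was Btc, encoding betacellulin, with 27 and 32 UMIs and a ratio of 3.17 (1.85 to 5.52). Hbegf, another ligand, was at 278 and 215 CPM, a ratio of 0.775 (0.694 to 0.864). The receptor gene Erbb3 was lower, at 58.9 and 27.3 CPM (0.467, 0.340 to 0.620), as was the ligand gene Tgfa with 65 and 9 UMIs (0.389, 0.163 to 0.750). Erbb2 had a ratio of 0.540 (0.365 to 0.763) and Adam17, the sheddase that frees amphiregulin, of 0.642 (0.361 to 1.05). Btc and Tgfa were named after their values were seen.

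Of 7 measured keratins, Krt20 and Krt13 were higher, none was lower and 5 were neither, with a median log2 ratio of 0.69. Krt18 was at 747 and 1427 CPM, a ratio of 1.91 (1.82 to 2.01), and Krt8 had a ratio of 1.60 (1.505 to 1.69). Krt20, a keratin of differentiated cells, was at 35.7 and 172 CPM (4.80, 4.01 to 5.77). Krt7 was the keratin with the lowest ratio of the 7.

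Receptors and adaptors for interleukin 33, annexin A1 and clusterin were rare, with 4 of 10 measured. Myd88, the adaptor used by the interleukin 33 receptor, had 57 and 66 UMIs and a ratio of 3.10 (2.15 to 4.51). Fpr1, a formyl peptide receptor gene of neutrophils, had 0 and 31 UMIs, at least 27.7-fold higher, beside the granulocyte transcripts. Lrp2, which takes up clusterin, had 57 and 6 UMIs and a ratio of 0.303 (0.0995 to 0.654).

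Interferon-stimulated genes were higher for 19 of 20 measured, with 0 lower and a median log2 ratio of 4.95. Of the 20, 7 had 20 UMIs in the Casp8-mutant library alone, and all 7 were among the 19 higher, so the UMI minimum bears on this count. Whether interferon takes part in the levels of Ly6a and Ly6e was not tested. Isg15, encoding a ubiquitin-like modifier, was at 16.2 and 1774 CPM, a ratio of 109 (88.6 to 138). Ifitm3 had a ratio of 37.9 (32.0 to 45.5), Bst2 of 24.4 (21.2 to 28.4) and Ifit1 of 7.52 (6.76 to 8.39). Irf9, at 1.82 (1.37 to 2.40), was the gene within 2-fold. Of 9 measured adult crypt stem genes, Axin2 was higher, Slc12a2 and Smoc2 were lower and 6 were neither, with a median log2 ratio of 0.68. Sox9, a transcription factor of crypt cells, had a ratio of 1.60 (1.30 to 1.95) and Rnf43 of 1.99 (1.49 to 2.65). Lgr5 and Olfm4, with 14 and 3 and with 3 and 3 UMIs, could not be called.

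**Figure D5:**
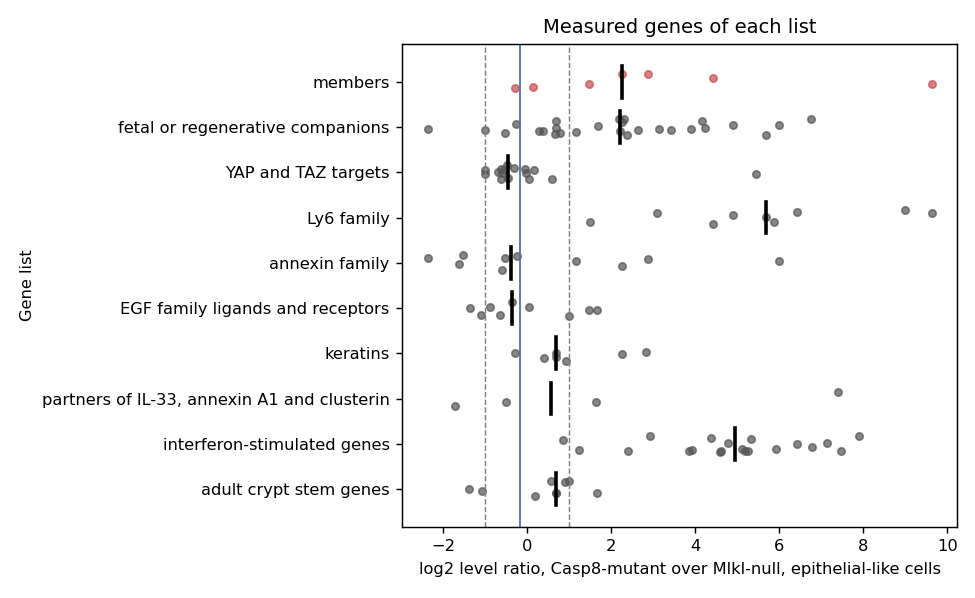
Log2 level ratio of each measured gene, Casp8-mutant over Mlkl-null, in epithelial-like cells by gene list; black bars are list medians, the blue line is the median of all measured genes (-0.17), and dashed lines mark 2-fold. The fetal or regenerative companions have a median of 2.20, on which the UMI minimum bears, and the YAP and TAZ targets of -0.46.

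In cells with no UMI of the lymphoid, endothelial, fibroblast or mesothelial markers, 665 and 400 epithelial-like cells, the Ly6a ratio was 959, Ly6e 18.9, Anxa1 8.49, Anxa3 3.39 and Areg 3.40. In those cells 18 of 26 measured companion genes and 9 of 9 Ly6 family genes were higher, beside 17.9% of all 11767 genes measured there. Without the clusters led by small nuclear RNAs (12 and 20), the same 5 members had ratios of 762, 19.2, 7.27, 5.16 and 2.58, and 17 of 27 companion genes were higher, beside 16.7% of 13487 genes. Both checks were added after the data were seen. The UMI minimum bears on their counts as described above, and the Ly6 family count is again no support for a change of the family. Granulocyte transcripts could not be removed this way, since 3 Casp8-mutant epithelial-like cells were left when cells with myeloid or granulocyte markers were also taken out.

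The genes whose levels followed each member most closely were found from log2(CPM + 10) over 16 groups, each a class of at least 20 cells in 1 library. For Ly6a they were Reg3g (r = 0.955), Mx1 (0.947), Xist (0.943), Tsix (0.933) and Reg3b (0.930), of 11486 genes. Xist and Tsix mark the sex of the embryo, so a high value here can follow from a difference between the libraries alone. For Ly6e they were Ifitm3 (0.974), Ifi27l2a (0.945) and Cxcl2 (0.928), and for Anxa1 Slpi (0.938), S100a6 (0.873) and Ifitm1 (0.856). Anxa3 was followed by Smim3 (0.942), Gbp2 (0.879) and Gadd45b (0.871), and Areg by Sfn (0.889), Fam83h (0.869) and Gm2962 (0.862). Clu was followed by Col27a1 (0.883), Prkab2 (0.874) and Lrrc42 (0.874), and Krt7 by Syne4 (0.867), Sdc2 (0.855) and Mterf4 (0.851). Il33 was followed by the caveolar genes Cavin1 (0.955) and Cav1 (0.943) and by Hspg2 (0.939). These correlations are descriptions over groups that share a library and its depth, with no test.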

How the data were processed

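Single-cell RNA libraries of 2 embryos were made with 10x Chromium 3' v2 chemistry, per the labels' protocols. The authors deposited raw UMI counts per gene and barcode. Cell Ranger 3.0.2 and Seurat 3.0, with the mm10 genome, are named per the submitters' processing notes. The role of each, the barcode filter and the strand setting: not given in the sources used here. Symbols for 52403 of 52636 gene identifiers came from GENCODE M21.

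Barcodes with fewer than 500 genes (39 and 139, of which 38 and 121 were mostly haemoglobin) were removed; 0 had over 20% mitochondrial UMIs. Scrublet called 4 and 2 doublets, which were removed; undetected doublets may remain. Both libraries were clustered together in scanpy 1.11.5 (2000 variable genes per library, 30 components, 15 neighbours, Leiden resolution 1, seed 0), without integration. The 149 member and listed genes were left out of clustering, as were the Y-linked genes, Xist and Tsix. Clusters were named "-like" from fixed markers; the scoring rule was revised after clusters had been seen, because earlier forms misnamed some. A name outside the epithelium (enteroendocrine and acinar included) needed a marker score of at least 1, at least 3 markers in 10% of cells and 1 among the 10 leading genes; except for those 2 names, fewer than 8 of 11 epithelial markers could be in 25% of cells. Top names within 0.3 of each other left a cluster unnamed. Other clusters were epithelial-like with at least 5 of 11 epithelial markers in 25% of cells and an epithelial, enterocyte, goblet or progenitor score of at least 0, which cluster 9 lacked. Enterocyte-, goblet- and progenitor-like needed a score of at least 0.5 and 3 markers, but none among the leading genes; clusters 12 and 21 had none there. A score is the mean log2 of marker means over the average of all clusters. Clusters 9 and 14 (14 and 39 cells) stayed unnamed.

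Counts were summed per library and class and divided by the class total. Ratios had 0.5 UMI added to each sum, and a 0 was set at 3 counts for a bound. Genes named beyond the 8 members were the 4 with the most UMIs in each list and the genes of most similar pattern, except that genes behind a count of 5 or fewer, and those stated, were named after their values were seen. The ratio code was tested on simulated data. The members and lists were chosen with earlier results of these data known.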

Additional observations from a re-analysis of the deposited data

Results flagged for a closer look

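Ly6a and Ly6e were present in barcodes outside every comparison. The 121 Casp8-mutant barcodes that were removed for having fewer than 500 genes and were mostly haemoglobin held Ly6a at 111 CPM (20 UMIs, 95% Poisson interval 68.0 to 172) and Ly6e at 100 CPM (18 UMIs, 59.4 to 158). The 38 Mlkl-null barcodes of the same kind held 0 UMIs of either, which allows up to 30.2 CPM by the limit of 3 counts. The source of these transcripts was not tested.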

How the results depend on the processing

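No paired analysis was possible because each genotype has 1 library. Of 231 alternative level ratios, 213 stayed within the counting interval of the reported ratio. In all 7 turned direction: 1 from a ratio past 2-fold (Il33) and 6 from ratios within 2-fold (Krt7, Clu and, in enterocyte-like cells, Areg). Of the alternative counts, 187 stayed within 1.5 times and 37 did not, and of the shares of cells 124 stayed within their interval and 20 did not. All 5 higher members stayed higher by at least 2-fold in epithelial-like cells under each alternative in which they were measured, and none of the 8 was lower. Taking only cells without myeloid, granulocyte, lymphoid, endothelial, fibroblast or mesothelial UMIs left 262 Mlkl-null and 3 Casp8-mutant cells. There the ratios were 233 for Ly6a, 14.3 for Ly6e, 33.3 for Anxa1, 15.6 for Anxa3, 3.95 for Clu, 1.99 for Krt7 and 77.8 for Il33, and 3 of 4 measured members were higher, as were 68.8% of 6261 genes; 3 cells are too few to read. Thinning each cell to 1500 UMIs with new clusters (1014 and 286 cells) gave 0.52 for Clu, 1.31 for Krt7, 3.59 for Areg and a reversed 0.394 for Il33. Il33 was under the UMI minimum in the main comparison but not in every alternative. At resolution 0.5, and with a minimum of 5 UMIs, all 8 members were measured and 6 were higher. Weighting cells equally gave 1.04 for Krt7 and 3.29 for Areg, and clustering each library alone gave 2.32 for Clu. Removing cells with lymphoid, endothelial, fibroblast or mesothelial UMIs gave 3.40 for Areg. The cause of these moves was not tested. The thinned alternative had 13 of 19 measured companion and 4 of 4 Ly6 family genes higher, beside 10.6% of 9072 genes, so fewer genes passed the UMI minimum. That minimum bears on both counts, and the Ly6 family count is no support for a change of the family. The epithelial-like class drew on nearly separate clusters in the 2 libraries, 1 embryo stands for each genotype, and genes with few UMIs in either library have wide intervals.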
